A study of Mus musculus with 2 samples.

Results

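The genes described here are 10 named genes of neutrophil recruitment and of neutrophils themselves: the CXCR2 ligands Cxcl1, Cxcl2, Cxcl3 and Cxcl5, the receptor Cxcr2, and the granule or lineage genes Ly6g, Retnlg, Camp, Ltf and Ngp. They were chosen by symbol, and 9 of the 10 were found among the 24346 gene symbols listed in both libraries. Ly6g was not analysed here. RNA was sequenced from the whole omentum, a fold of abdominal fat with lymphoid clusters called milky spots, with 1 library for the WT genotype and 1 for Postn-DTR. Postn-DTR mice are Postn Dtr/+ heterozygotes on a C57BL/6 background in which a diphtheria toxin receptor was inserted at the Postn gene, and WT mice lack this receptor. Both genotypes received diphtheria toxin (DT) into the peritoneal cavity, and both libraries were made 5 days later, so no library without DT was compared. The study used the Postn promoter to ablate Aldh1a2+ fibroblastic reticular cells, but that promoter is also active in mesenchymal cells of other organs, so the ablation was not limited to the omentum by design. Neither the age and sex of the mice nor whether a library held 1 mouse or a pool was given in the sources used here.

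Neutrophils are short-lived phagocytes that leave the blood when CXC chemokines carrying an ELR motif engage CXCR2 on their surface. Macrophages, endothelium, mesothelium and fibroblasts transcribe these ligands rapidly after injury or microbial contact, largely through NF-kappaB. Neutrophil granule proteins are made in a fixed order in the bone marrow: primary granule enzymes in promyelocytes, secondary granule proteins such as lactoferrin, cathelicidin and neutrophilic granule protein in myelocytes and metamyelocytes, and receptors such as CXCR2 late in maturation. Circulating neutrophils keep the granule proteins but have little of the early granule mRNAs.

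The promoter sequences of the 3 ligands with the largest ratios between the libraries are shown because they carry the same kappaB site. Windows of the RefSeq reference (GRCm38.p6) were matched for 9 of the 10 genes, all but Cxcl5, and the 250 bases before each start were searched on both strands. The letters GGGAATTTCCC, in capitals below, join overlapping matches to the kappaB consensus on both strands. They stood at bases -71 to -61 of Cxcl1, -97 to -87 of Cxcl2 and -73 to -63 of Cxcl3, counted from the RefSeq start. The plus strand is printed 5′ to 3′ with 25 bases on each side, from chr5:90891149-90891209 for Cxcl1, chr5:90903777-90903837 for Cxcl2 and chr5:90786003-90786063 for Cxcl3. All 3 lie upstream of the gene.
Cxcl1: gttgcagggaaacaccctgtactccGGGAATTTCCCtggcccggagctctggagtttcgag
Cxcl2: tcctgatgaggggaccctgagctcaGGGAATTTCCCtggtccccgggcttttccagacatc
Cxcl3: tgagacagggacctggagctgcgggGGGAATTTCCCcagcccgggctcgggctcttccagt
These exact letters were found in 14 of 32851 promoter windows (0.0426%), and the broader kappaB consensus was found in 3.90%. The letters were singled out after the matches were seen, because the 3 windows shared them, so their rarity is only a description. Of the 61 bases in register, the shared letters included, 30 were identical between Cxcl1 and Cxcl2, 28 between Cxcl1 and Cxcl3, and 24 between Cxcl2 and Cxcl3. Among the 9 member windows the kappaB consensus matched only those of Cxcl1, Cxcl2 and Cxcl3. A match describes letters and was not tested for binding.

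The granule genes Ltf and Ngp shared another sequence, shown because both genes were lower in the Postn-DTR library. A C/EBP motif, the element bound by C/EBP factors that direct granulocyte genes, was searched as TTNNGNAA and was present in 5 of the 9 member windows, those of Cxcl2, Ly6g, Retnlg, Ltf and Ngp, against 36.8% of all windows. The match in capitals reads TTGGGCAA in Ltf, at bases -75 to -68. Ngp holds the same letters at 2 places, on the plus strand at -11 to -4 and on the minus strand at -138 to -131. The minus-strand copy is printed, so the plus strand shows TTGCCCAA. The windows are chr9:111019192-111019249 and chr9:110419645-110419702.
Ltf: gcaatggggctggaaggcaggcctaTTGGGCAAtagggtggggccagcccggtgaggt
Ngp: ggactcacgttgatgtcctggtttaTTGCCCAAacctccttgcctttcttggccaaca
TTGGGCAA was found in 233 windows (0.709%), and it was singled out after the matches were seen. The window of Camp, which was also lower, had no match to any motif searched, and no member window held the STAT motif TTCNNNGAA (7.02% of all windows). GAGGAA, the core bound by PU.1, was found in the windows of Cxcr2, Ly6g and Ltf (23.3% of all windows), and TATAAA in those of Cxcl3 and Ly6g (12.4%).

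Values are FPKM, which are read fragments scaled to transcript length and to sequencing depth. A change is log2(FPKM + 1) in Postn-DTR less that in WT, a scale that shrinks differences between low values, and only genes whose FPKM averaged at least 1 over the libraries were compared. Past 2-fold on that scale, a gene was called higher or lower. With 1 library per genotype there is no replicate check, no test and no p-value. Ratios of FPKM are given with an exact 95% Clopper-Pearson interval from estimated reads, which covers counting error only. The WT library held about 23200000 fragments and the Postn-DTR library about 24000000, as estimated from the low values. Postn itself, the targeted gene, was at 58.3 FPKM in WT and 16.2 in Postn-DTR. Because the receptor was inserted at this gene, the insertion and a loss of cells cannot be told apart here. Of 13127 genes compared, 509 (3.88%) were higher and 410 (3.12%) were lower in Postn-DTR. The median of their changes was 0.02. Removing pancreatic acinar genes and setting equal totals turned this split to 306 higher and 812 lower, and shifted the median of all genes by -0.30. Scaling to reference genes shifted it by -0.13, and no member or neutrophil context gene named below changed its direction under either.

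All 9 listed members passed the minimum: 5 were higher in Postn-DTR, 3 were lower and 1, Cxcl5, was within 2-fold. These counts stand against 3.88% higher and 3.12% lower among all genes compared. The higher genes were Cxcl1, Cxcl2, Cxcl3, Cxcr2 and Retnlg, and the lower genes were Camp, Ltf and Ngp. Cxcl2, Cxcl3, Cxcl5 and Cxcr2 had a WT FPKM under 1 and passed the minimum only through the Postn-DTR library, so the minimum itself favoured a higher value for them, and they give no support to the count of higher members. The median change of the 9 genes was 1.48, but it joins ligands, whose changes ran from 0.92 to 3.69, with granule and lineage genes, whose median was -1.78. In a bulk library, fewer cells of a type and less RNA per cell cannot be told apart.

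**Figure D1:**
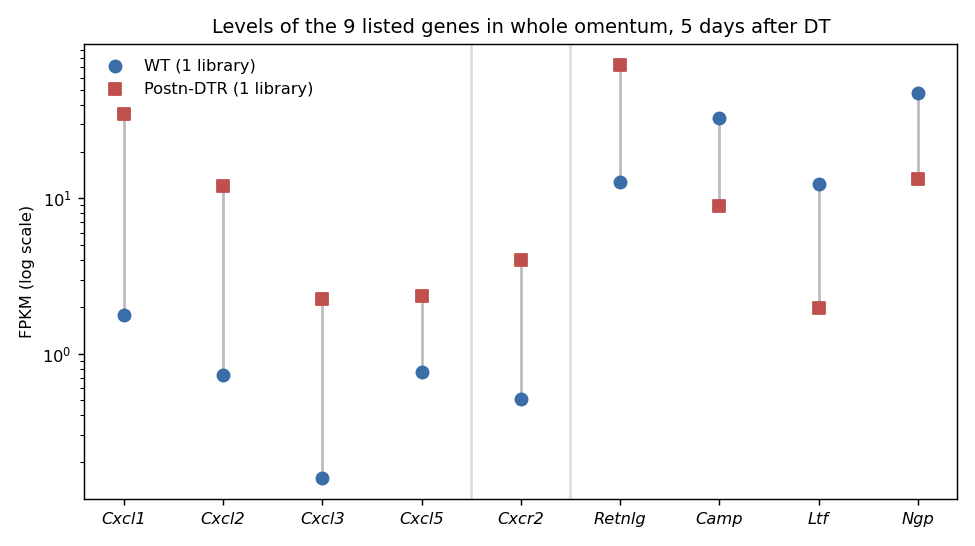
FPKM of the 9 listed genes on a log axis in the WT library (circles) and the Postn-DTR library (squares), ordered as ligands, receptor, and granule and lineage genes. The 4 ligands, Cxcr2 and Retnlg were higher in Postn-DTR, and Camp, Ltf and Ngp were lower; each point is 1 library.

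Cxcl1, the mouse KC chemokine and a main CXCR2 ligand, was at 1.78 FPKM in WT and 34.9 in Postn-DTR, a ratio of 19.6 (counting interval 13.7 to 29.2). This is a change of 3.69, the 23rd largest increase among the genes compared. By level it stood at rank 12149 of all listed genes in WT and at rank 2730 in Postn-DTR. The estimated reads behind these values were 31.3 and 633.2. Cxcl2 (MIP-2), which activated macrophages release in large amounts, was at 0.731 FPKM in WT and 12.1 in Postn-DTR, a ratio of 16.6 (10.1 to 30.9) and a change of 2.92. It ranked 57 by increase. Cxcl3, a close relative of Cxcl2, was at 0.158 FPKM in WT and 2.24 in Postn-DTR (change 1.48). Its WT value rests on about 3 reads against 44.0 in Postn-DTR, so its ratio of 14.2 has an interval of 4.54 to 71.2. The intervals of these 3 ratios overlapped one another.

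Cxcl5, a ligand made mainly by epithelial and stromal cells, differed less. It was at 0.767 FPKM in WT and 2.34 in Postn-DTR, a ratio of 3.05 (1.87 to 4.87), and its change of 0.92 was just inside 2-fold. In WT it was about as abundant as Cxcl2, whereas in Postn-DTR it was near Cxcl3. The interval of its ratio did not overlap those of Cxcl1 and Cxcl2, though it overlapped that of Cxcl3. Relative to Cxcl1 in the same library, Cxcl5 went from 0.431 to 0.0671, a 6.42-fold difference, whereas Cxcl2 went from 0.410 to 0.347 and Cxcl3 from 0.0886 to 0.0641. The 4 ligands summed to 3.44 FPKM in WT and 51.6 in Postn-DTR, a ratio of 15.0. Cxcl1 made up 51.8% of the WT sum and 67.6% of the Postn-DTR sum, Cxcl2 21.3% and 23.5%, Cxcl3 4.59% and 4.34%, and Cxcl5 22.3% and 4.54%.

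The 4 ligand genes lie on the plus strand of chromosome 5 within 147 kb (GRCm38, GENCODE M21). Cxcl5 is at chr5:90759360-90761624, Cxcl3 at chr5:90786103-90789600, Cxcl1 at chr5:90891241-90893115 and Cxcl2 at chr5:90903871-90905938. The span holds 3 other listed genes, Ppbp, Pf4 and Cxcl15. Ppbp, the platelet CXCR2 ligand, was at 0.684 FPKM in WT and 1.32 in Postn-DTR (change 0.46). Pf4, a platelet and macrophage chemokine that does not act on CXCR2, was at 146.9 FPKM in WT and 280.5 in Postn-DTR (change 0.93). Both were within 2-fold, and Cxcl15 was listed at 0 in both libraries.

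**Figure D2:**
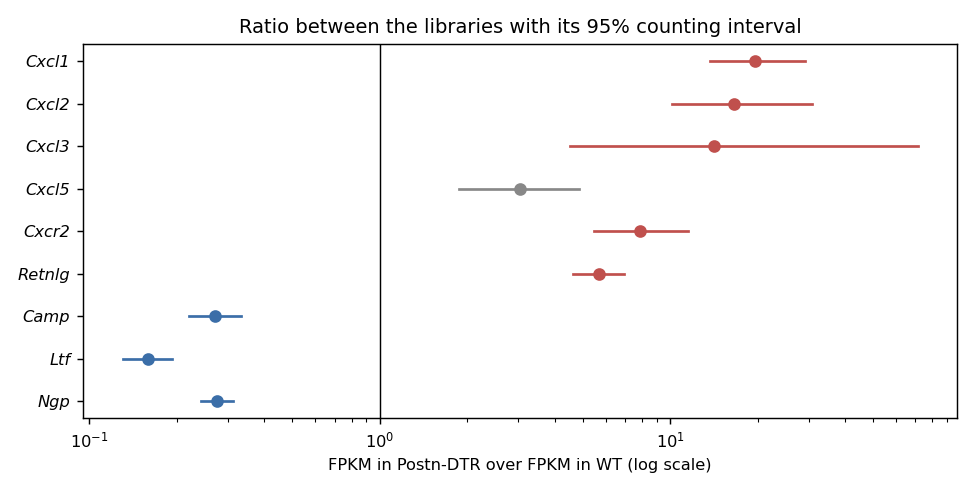
Ratio of FPKM in Postn-DTR over WT for each listed gene on a log axis, with its 95% interval for counting error. The intervals of Cxcl1, Cxcl2 and Cxcl3 overlap, and that of Cxcl5 lies below those of Cxcl1 and Cxcl2; Camp, Ltf and Ngp lie left of 1.

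Cxcr2, the receptor for all these ligands, was at 0.514 FPKM in WT and 4.03 in Postn-DTR, a ratio of 7.85 (5.47 to 11.5). Its change of 1.73 ranked 165 by increase, and the estimated reads were 34.0 and 276.1. The gene is at chr1:74153989-74161246 on the plus strand. Cxcr1, another chemokine receptor of neutrophils, was listed at 0 in WT and at 0.180 FPKM in Postn-DTR, under the minimum. Ackr1, the endothelial and erythrocyte receptor that binds the ligands without signalling, was at 29.4 FPKM in WT and 37.8 in Postn-DTR (change 0.35). Of the other 4 ligands and receptors of the CXCR2 axis, 2 were compared and both were within 2-fold, with a median of 0.41.

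The granule and lineage genes split by gene. Retnlg, a resistin-like protein of neutrophils whose transcript stays high in mature cells, was at 12.8 FPKM in WT and 72.6 in Postn-DTR. This is a ratio of 5.68 (4.64 to 6.92) and a change of 2.42, rank 81 by increase, from 117.8 and 690.0 estimated reads. In Postn-DTR it was the most abundant of the 9 genes. It lies at chr16:48872621-48874496 on the plus strand.

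The 3 secondary granule genes went the other way. Ltf, which encodes the iron-binding protein lactoferrin, was at 12.4 FPKM in WT and 1.98 in Postn-DTR, 6.28-fold lower (5.18 to 7.68), with a change of -2.17. Camp, which encodes the cathelicidin antimicrobial peptide, was at 33.1 FPKM in WT and 8.98 in Postn-DTR, 3.68-fold lower (3.01 to 4.55), with a change of -1.77. Ngp, a cystatin-like granule protein, was at 48.0 FPKM in WT and 13.2 in Postn-DTR, 3.62-fold lower (3.21 to 4.12), with a change of -1.78. Among all decreases they ranked 80, 120 and 118. Ngp, Camp, Retnlg and Ltf were the 4 most abundant members in WT, in that order, with Retnlg and Ltf nearly equal. In Postn-DTR the order was Retnlg, Cxcl1, Ngp, Cxcl2, Camp, Cxcr2, Cxcl5, Cxcl3 and Ltf, and the last 3 lay between 1.98 and 2.34 FPKM.

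Camp, Ngp and Ltf all lie on chromosome 9, at chr9:109847379-109849617 on the minus strand, chr9:110419747-110423012 on the plus strand and chr9:111019271-111042767 on the plus strand. The 1195 kb from Camp to Ltf hold 30 other listed genes, of which 16 were compared. Of these, 15 were within 2-fold and 1 was lower, with a median change of -0.10. The exception, named after its value was seen, was Pth1r, a parathyroid hormone receptor, at 27.5 FPKM in WT and 8.11 in Postn-DTR.

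**Figure D3:**
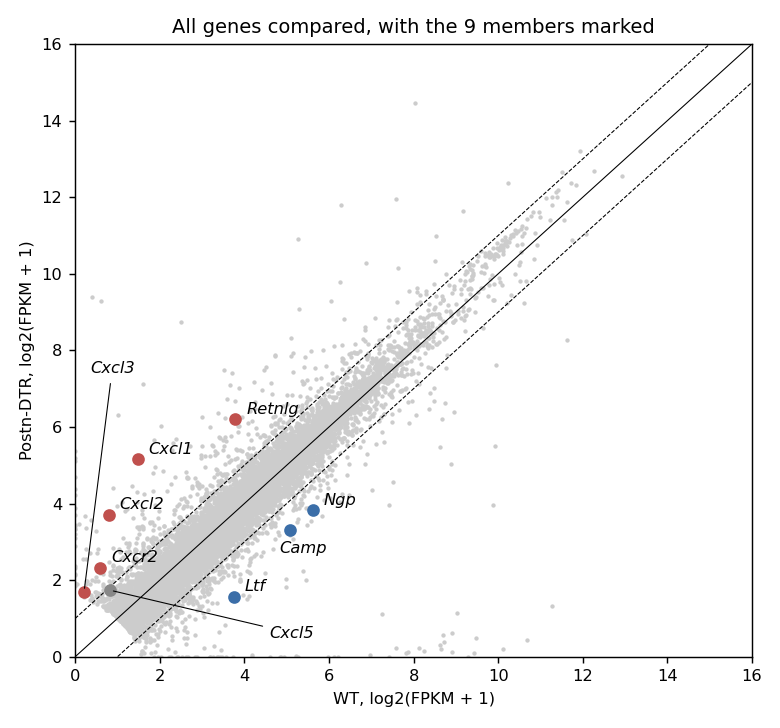
log2(FPKM + 1) in Postn-DTR against WT for the 13127 genes compared, with the 9 members marked. The solid line is equality and the dashed lines are 2-fold; Cxcl5 lies just inside the upper line, and Camp, Ltf and Ngp lie under the lower one.

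Ratios within a library do not depend on how the libraries were scaled. Camp over Ngp was 0.689 in WT and 0.679 in Postn-DTR, so these 2 genes kept nearly the same proportion. Ltf over Ngp was 0.259 in WT and 0.149 in Postn-DTR, a 1.73-fold difference. Retnlg over Ngp was 0.267 in WT and 5.49 in Postn-DTR, 20.6-fold higher, and Cxcr2 over Ngp went from 0.0107 to 0.305, 28.4-fold higher. Retnlg was thus below Ngp in WT and above it in Postn-DTR. Ngp itself was 3.62-fold lower in Postn-DTR, so a gene at an unchanged level would also rise relative to Ngp. No spread between replicates is available for these ratios.

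Other neutrophil genes were described by lists grouped by role. Of 6 genes in the primary granule list, 5 were compared, with 1 higher, 2 lower and a median of -0.81. Mpo, myeloperoxidase, was at 3.84 FPKM in WT and 0.726 in Postn-DTR (change -1.49). Elane, neutrophil elastase, was at 5.86 FPKM in WT and 1.85 in Postn-DTR (change -1.27). Ctsg, cathepsin G, was at 1.66 FPKM in WT and 0.519 in Postn-DTR (change -0.81, short of 2-fold). The list also holds Serpinb1a, within 2-fold at 28.6 FPKM in WT and 27.1 in Postn-DTR. Prtn3, the serine protease proteinase 3, stood apart, at 8.10 FPKM in WT and 62.6 in Postn-DTR, a ratio of 7.73 (6.51 to 9.15). Elane over Ngp was 0.122 in WT and 0.140 in Postn-DTR, whereas Prtn3 over Elane was 1.38 in WT and 33.9 in Postn-DTR.

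Of 10 other secondary and tertiary granule genes, 9 were compared, with 6 higher, none lower and a median of 1.76, so no gene of this list was lower past 2-fold as Camp, Ltf and Ngp were. Mmp8, neutrophil collagenase, was at 1.32 FPKM in WT and 6.82 in Postn-DTR (change 1.76). Mmp9, gelatinase, was at 27.2 FPKM in WT and 22.9 in Postn-DTR, within 2-fold. Cd177, a neutrophil surface protein, was at 2.94 FPKM in WT and 4.21 in Postn-DTR, also within 2-fold. The other 5 higher genes, Lcn2, Hp, Chil3, Itgam and Cybb, are also transcribed by adipocytes, macrophages or monocytes, so the list is not restricted to neutrophils.

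Of 22 mature neutrophil genes, 18 were compared, with 15 higher, none lower and a median of 1.67, and 6 of those compared passed the minimum only through Postn-DTR. Il1r2, the decoy interleukin 1 receptor, was at 0.864 FPKM in WT and 20.1 in Postn-DTR (change 3.50). Trem1, a receptor that amplifies myeloid activation, was at 0.167 FPKM in WT and 11.8 in Postn-DTR (change 3.46). The calprotectin subunits were within 2-fold: S100a8 was at 169.7 FPKM in WT and 338.6 in Postn-DTR (change 0.99), and S100a9 was at 156.6 FPKM and 249.3 FPKM, a change of 0.67. The stefin genes Stfa2, Stfa2l1 and Stfa3 were listed at 0 in WT and at 2.63, 13.7 and 3.36 FPKM in Postn-DTR, but these are near-identical copies whose reads can be split, and their values are uncertain. With the 3 stefins set to a floor of 3 reads per library in WT, the median was 1.52 and 15 genes were still higher. At least Trem1, Clec4d, Fpr1, Fpr2, Slfn4 and Hdc of this list are also transcribed by other myeloid cells, so this list is not restricted to neutrophils either.

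**Figure D4:**
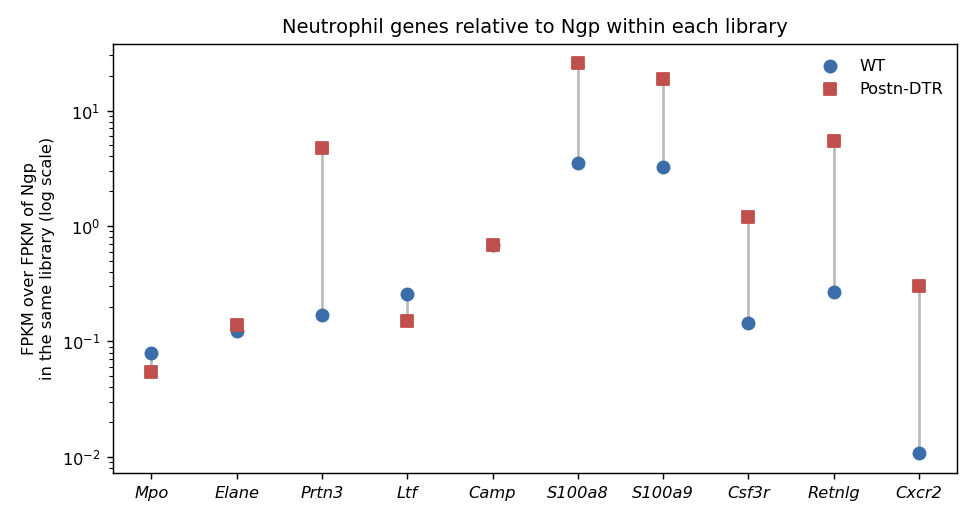
FPKM of neutrophil genes divided by the FPKM of Ngp in the same library, on a log axis, for WT (circles) and Postn-DTR (squares). Mpo, Elane, Ltf and Camp lie within 2-fold of their WT ratio, and Prtn3, S100a8, S100a9, Csf3r, Retnlg and Cxcr2 lie above it. Ngp itself was 3.62-fold lower in Postn-DTR, so a gene at an unchanged level would also lie above its WT ratio.

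Of 8 neutrophil development factors, 7 were compared, with 4 higher and a median of 1.10, and 1 of the 4, Csf3, passed the minimum only through Postn-DTR. Csf3, which encodes G-CSF, the cytokine that drives neutrophil production and release, was at 0.0739 FPKM in WT and 10.1 in Postn-DTR. The WT value is about 2.09 reads, so the ratio of 137.3 has a counting interval of 39.3 to 1189. Its receptor Csf3r, which is also counted among the mature neutrophil genes, was at 6.87 FPKM in WT and 15.9 in Postn-DTR (change 1.10). Cebpb, which directs emergency granulopoiesis, was at 39.0 FPKM in WT and 110.3 in Postn-DTR. Gfi1, a repressor needed for granulocyte commitment, was at 1.84 FPKM in WT and 1.73 in Postn-DTR, and Cebpe, which drives secondary granule genes, was at 0.621 FPKM and 0.561 FPKM, under the minimum. Which cells of the whole omentum held the transcripts of this list was not tested, so the higher values cannot be assigned to neutrophils.

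Of 10 cytokines and receptors upstream of CXCR2 ligands, 7 were compared, with 3 higher, none lower and a median of 0.75. Il1b was at 1.87 FPKM in WT and 8.19 in Postn-DTR (change 1.68). Il1a was at 0.412 FPKM in WT and 3.21 in Postn-DTR (change 1.58), and Il6 was at 0.436 FPKM and 5.58 FPKM, a ratio of 12.8 (6.05 to 33.1). Both passed the minimum only through Postn-DTR. Tnf was at 3.76 FPKM in WT and 2.26 in Postn-DTR (change -0.55), and Il17a, which induces CXCR2 ligands in stroma, was listed at 0 in both libraries. Of 10 endothelial adhesion molecules and other chemoattractant receptors, 9 were compared, with 3 higher and a median of 0.51. Selp, the P-selectin on which neutrophils roll, was at 8.55 FPKM in WT and 44.3 in Postn-DTR (change 2.25), whereas Icam1, on which they arrest, was at 37.2 FPKM and 47.3 FPKM. Of 8 CXC chemokines that do not act on CXCR2, 7 were compared, with none higher, 2 lower and a median of -0.14. The lower ones were Cxcl12, at 180.0 FPKM in WT and 69.5 in Postn-DTR, and the T cell chemokine Cxcl9, at 7.60 FPKM and 3.22 FPKM.

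Markers of other myeloid cells moved as well. All 10 macrophage markers had higher values in Postn-DTR, 2 of them past 2-fold, with a median of 0.87 and a summed level of 5008 FPKM in WT and 8476 in Postn-DTR. Of 6 monocyte markers, 2 were higher and 1 was lower, with a summed level of 356.3 FPKM in WT and 679.3 in Postn-DTR. Chil3, 1 of the 2 and also counted with the granule genes, was at 12.1 FPKM in WT and 170.0 in Postn-DTR. Ly6c2, the other higher one, was at 50.9 FPKM in WT and 150.3 in Postn-DTR. The lower one, Ccr2, was at 39.6 FPKM in WT and 16.4 in Postn-DTR. No macrophage or monocyte marker was at 0. Their part in the higher ligand and Retnlg values was not tested. Of 6 erythrocyte markers, which track blood in the tissue, 3 were compared and all 3 were higher, with a summed level of 274.9 FPKM in WT and 838.6 in Postn-DTR, and the part of blood in the neutrophil genes was not tested.

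**Figure D5:**
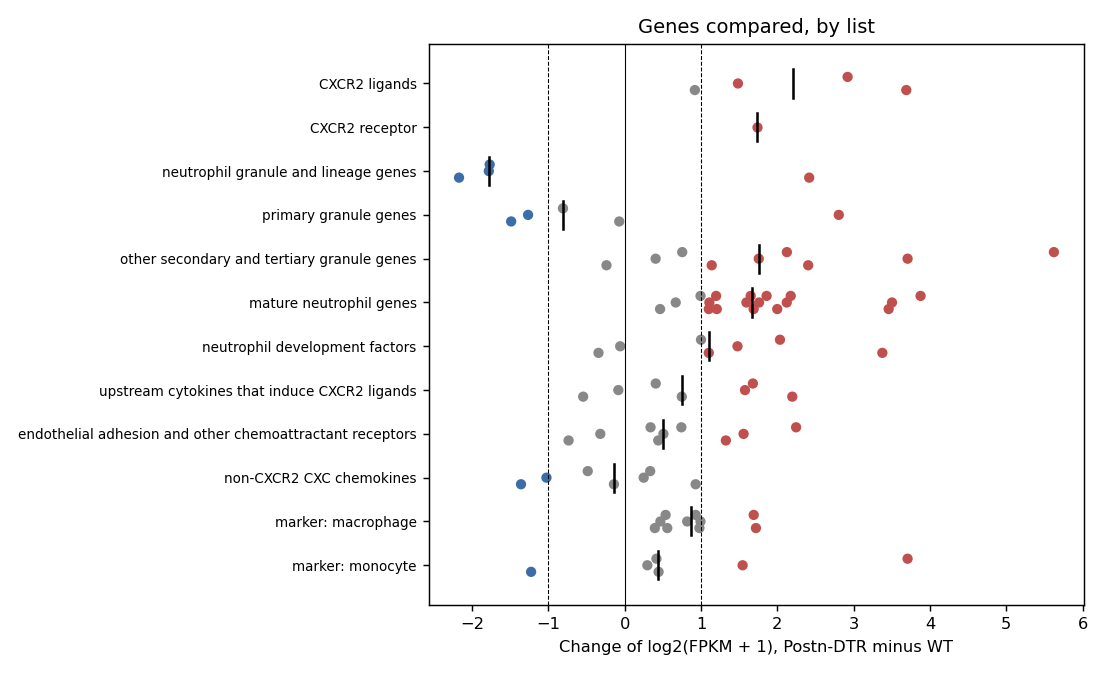
Difference in log2(FPKM + 1) between Postn-DTR and WT (positive where Postn-DTR was higher) for each gene compared, by list, with a vertical bar at the list median and dashed lines at 2-fold. Ligands, mature neutrophil genes and other secondary and tertiary granule genes lie mostly to the right, and Camp, Ltf, Ngp, Mpo and Elane lie to the left.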

How the data were processed

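Per the labels, total RNA of whole omentum was purified by miRNeasy, and the library kit was TruSeq stranded mRNA. The authors deposited FPKM per gene symbol, 1 file per library. The submitters' processing notes name TopHat2 2.1.1, Bowtie2 2.2.8, SAMtools 0.1.18, Cuffdiff 2.2.1 and the mm10 build, without their roles. The annotation is not given in the sources used here.

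Groups came from the genotype labels. The change was taken on log2(FPKM + 1) for genes averaging an FPKM of 1 or more, and calls were made at 2-fold, with no test. Depth was estimated from 723 genes with low values: in 174 of them Postn-DTR over WT lay within 0.004 (log2) of the most common ratio and had a median of 0.967, and with the lengths of GENCODE M21 (95.6% of symbols matched) 74.0% of low WT values and 71.3% of low Postn-DTR values came within 0.05 of whole reads. These reads are approximate and gave the intervals. The depth estimate and the 2-fold calls were tested on simulated data, but the interval calculation was not. Motifs were searched in RefSeq windows of GRCm38.p6.

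The members and the 18 lists were chosen with earlier results of these data known, so nothing here is independent of them. Genes named are the members, genes of the lists and, where stated, genes chosen after their values were seen. Alternatives varied the pseudocount, the minimum, the scaling and the fold. Python 3.11.15, numpy 2.4.6, pandas 2.3.3, scipy 1.17.1 and matplotlib 3.10.9 were used.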

Additional observations from a re-analysis of the deposited data

How the results depend on the processing

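None of 67 changes of single members under the alternatives turned sign. A pseudocount or a minimum cannot turn a sign, so only the alternatives of scaling could have done so. Cxcl1 ranged from 2.56 to 4.22, Cxcr2 from 0.71 to 2.75, Retnlg from 2.09 to 2.50, Ltf from -2.59 to -1.32 and Ngp from -2.11 to -1.54. Of the 9 members compared, 5 were higher, but 3 with a pseudocount of 5. At a minimum mean FPKM of 10, Cxcl2, Cxcl3, Cxcl5, Cxcr2 and Ltf dropped out. Of the members left, 2 were higher (Cxcl1 and Retnlg) and 2 were lower (Camp and Ngp), so fewer members were compared there. The median change of 1.48 was 2.50 with a pseudocount of 0.1, 0.49 with 5, 0.32 at the minimum of 10, 1.34 at equal totals without acinar genes and 1.73 without granule and lineage genes, and it reversed to -1.77 without the CXCR2 ligands. With a pseudocount of 5, primary granule genes lower went from 2 to 0, cytokines higher from 3 to 0 and other CXC chemokines lower from 2 to 1. At the minimum of 10 these became 0, 0 and 1, and mature neutrophil genes higher went from 15 to 9. At 3-fold, development factors higher went from 4 to 2, adhesion genes higher from 3 to 1, and primary granule genes lower and other CXC chemokines lower both to 0. At 1.5-fold, 1 adhesion gene became lower and 1 other CXC chemokine higher, and at equal totals 1 adhesion gene became lower. Over the 13127 genes compared, 642 were higher and 643 lower with a pseudocount of 0.1, and 287 and 168 with 5. At 1.5-fold they were 1294 and 1160, and at 3-fold 199 and 153, against 509 and 410. The minimum of 10 left 7207 genes, of which 303 were higher and 173 lower. As a share of the genes compared, higher genes thus rose and lower genes fell at that minimum. A larger pseudocount or minimum acts by construction on genes with low FPKM, and a fold threshold on the size of the change. No paired analysis was possible because each genotype had 1 library and the labels give no replicate numbers. Low WT reads limit the ratios of Csf3, Cxcl3, Il6, Trem1 and Cxcl2.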

Other observations

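Other cell types gave the following values. Of 6 platelet and megakaryocyte markers, 3 were compared and all were within 2-fold, with a median change of 0.47. Of 6 eosinophil markers, 2 were compared and both were within 2-fold, with a median of 0.51. All 6 adipocyte markers were within 2-fold, with a median of -0.37 and lower values in Postn-DTR for 4 of the 6. Their summed level of 6970 FPKM in WT and 8095 in Postn-DTR had the opposite direction, and Fabp4, the most abundant of them, went from 4879 to 6519 FPKM. Of the mesothelial markers, 4 of 5 were within 2-fold, all 5 summed to 467.6 FPKM and 473.7 FPKM, and Lrrn4 was lower, at 62.7 FPKM and 29.2 FPKM, so the markers of omental tissue were present in both libraries. Of 7 B and T cell markers, 4 were lower and none higher, at a summed level of 340.0 FPKM in WT and 240.0 in Postn-DTR. Of 24 pancreatic acinar genes compared, 23 were lower in Postn-DTR, with a summed level of 12357 FPKM in WT and 61.6 in Postn-DTR. All 8 reference genes were within 2-fold, with a median of 0.12.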
